A study of Mus musculus with 8 samples.

Results

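The CC chemokine ligands examined here are 9 genes of chromosome 11, Ccl2, Ccl3, Ccl4, Ccl5, Ccl6, Ccl7, Ccl8, Ccl9 and Ccl12. They were taken by gene name from a table of 23761 genes, and all 9 were listed. The table comes from RNA-seq of BMDMs (bone marrow-derived macrophages), which are macrophages grown from flushed marrow in medium conditioned by L929 fibroblasts, here for 6 days. The control group, LysM, held 4 LysM Cre/Cre mice, and the K2KO group held 4 LysM Cre/Cre KLF2 flox/flox mice, all 3 months old. Cre recombinase is thus expressed from the lysozyme M locus, which is active in myeloid cells, in both groups, and only the K2KO mice carry floxed Klf2. The sample descriptions mark all of these cultures as vehicle. The comparison addresses which transcripts differ between macrophages with and without the floxed Klf2 alleles.

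CC chemokines are small secreted proteins that bind receptors of the CCR family on leukocytes and guide the migration of these cells. The name comes from a pair of adjacent cysteines near the amino end of the mature protein. Macrophages are a major source. Ccl3 and Ccl4 are macrophage inflammatory proteins that, like Ccl5, attract monocytes and T cells, and Ccl3 and Ccl5 bind CCR1. Ccl2, Ccl7 and Ccl12 recruit monocytes through CCR2, and Ccl8 belongs to the same monocyte chemoattractant group. Ccl6 and Ccl9 are ligands of CCR1 that are made by resting macrophages of rodents.

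The adjacent cysteine codons are what the 9 genes share by name, so 36 bases of coding sequence around them are shown for 8 of the genes, read from GENCODE M21 transcripts on GRCm38. Capitals mark the codon pair and the remaining bases are in lower case, 5′ to 3′ along the coding strand.
Ccl2, exon 2, plus strand, chr11:82036491-82036526: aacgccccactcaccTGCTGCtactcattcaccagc
Ccl7, exon 2, plus strand, chr11:82046523-82046558: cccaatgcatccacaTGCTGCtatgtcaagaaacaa
Ccl12, exon 2, plus strand, chr11:82102619-82102654: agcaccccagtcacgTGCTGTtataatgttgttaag
Ccl8, exon 2, plus strand, chr11:82116041-82116076: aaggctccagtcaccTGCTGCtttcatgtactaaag
Ccl5, exon 2, minus strand, chr11:83529227-83529262: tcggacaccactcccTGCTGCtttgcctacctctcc
Ccl9, exon 3, minus strand, chr11:83575911-83575946: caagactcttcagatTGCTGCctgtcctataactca
Ccl6, exon 3, minus strand, chr11:83589371-83589406: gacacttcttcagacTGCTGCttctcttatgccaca
Ccl4, exon 2, plus strand, chr11:83663467-83663502: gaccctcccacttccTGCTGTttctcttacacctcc
The pair falls in the second of 3 exons in 7 genes, and in the third of 4 exons in Ccl6 and Ccl9. Over whole coding sequences the most alike pair was Ccl3 and Ccl4, with 68.1% identical aligned bases, followed by Ccl7 and Ccl8 with 64.7% and Ccl6 and Ccl9 with 64.6%. Searched against all transcripts of the annotation, the 9 genes had 0 near-identical copies in other genes (at least 95% identity over at least 200 bases).

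Expression was given as FPKM (fragments per kilobase of transcript, scaled by mapped fragments), so that levels can be compared between genes per length. Library names (LysM0 to LysM3, K2KO0 to K2KO3) take the final number of the column, which cannot be tied to 1 mouse. Summed over genes, FPKM came to between 497253 and 551608 in LysM and between 448235 and 501965 in K2KO libraries. Low values put relative depth at 0.889 to 1.45 times that of LysM0, and read counts are unknown. Klf2, the floxed gene, was at 44.1, 52.9, 64.7 and 72.8 FPKM in LysM0 to LysM3 and at 45.5, 41.6, 59.2 and 59.3 FPKM in K2KO0 to K2KO3. These groups overlapped, and its log2 fold change was -0.18 (SE 0.17, limma adjusted p = 0.460). With 1 library left out it ran from -0.31 without LysM0 to -0.070 without LysM3, and with the GC content and length correction it was 0.039. Gene-level FPKM cannot tell whether the floxed exons were lost. Because Klf2 was not clearly lower, directions below refer to the libraries labelled K2KO.

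The libraries held the transcripts that mark macrophages. All 8 macrophage markers passed the filter on low values, summing to 3927 to 4141 FPKM in LysM and 3683 to 3826 FPKM in the libraries labelled K2KO. Cd68 was the most abundant of them, with means of 1834 and 1779 FPKM. The ranges of these sums did not overlap. Of the 8 markers 2 were differentially expressed (25%, against 18.4% of all tested genes), Mertk higher and Lyz2 lower in the libraries labelled K2KO. Lyz2 is the gene of the lysozyme M locus that carries Cre in both groups, and its means were 18.6 and 13.2 FPKM. Its level need not track macrophages here. Cd14, named after its values were seen, was lower without overlap of the groups, with means of 1028 and 829 FPKM. It missed the threshold (log2 fold change -0.32, limma adjusted p = 0.0630). Markers of mast cells and basophils, of T and NK cells, and of stromal cells all averaged under 1 FPKM. The mean sums were higher in the libraries labelled K2KO, with means of 0.533 and 0.984 FPKM for T and NK cells and 0.588 and 1.70 FPKM for stromal cells, and with 0.193 to 0.622 against 0.592 to 1.22 FPKM for mast cells and basophils. The T and NK cell sums did not overlap (0.386 to 0.684 against 0.708 to 1.49 FPKM), while the stromal sums did (0.237 to 1.37 against 0.649 to 3.38 FPKM). Dendritic cell markers summed to means of 1.70 and 3.03 FPKM, and these sums overlapped too (0.576 to 2.29 against 1.94 to 4.54 FPKM). What part these low signals had in the ligand values was not tested. Of the markers of B cells, dendritic cells and dividing cells, 1 of 5 (Cd79b), 1 of 6 (Ccr7) and 3 of 5 (led by Cdk1 at 11.3 and 9.84 FPKM) were tested. Limma called 0 of these, with 1 dividing-cell marker at an unadjusted p under 0.05.

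Read per length, the 9 ligands spanned more than 2 orders of magnitude within 1 library. In the LysM libraries Ccl6 was the most abundant, with a mean of 388 FPKM, followed by Ccl9 at 244 FPKM. Ccl4 and Ccl3, at 164 and 153 FPKM, overlapped each other and did not overlap Ccl9 or Ccl8. Ccl8 at 33.0, Ccl5 at 19.4, Ccl2 at 15.1 and Ccl7 at 10.5 FPKM formed a run in which each overlapped the next. Ccl12 was lowest, at 1.55 FPKM. The order was the same in the libraries labelled K2KO but for Ccl5, which at 32.0 FPKM stood above Ccl8 at 27.4 FPKM, and these overlapped, as did Ccl6 and Ccl9 there. Ccl6 and Ccl9 together made up 58.2% to 64.6% of the summed FPKM of the 9 genes in the LysM libraries and 58.8% to 70.5% in the libraries labelled K2KO.

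**Figure D1:**
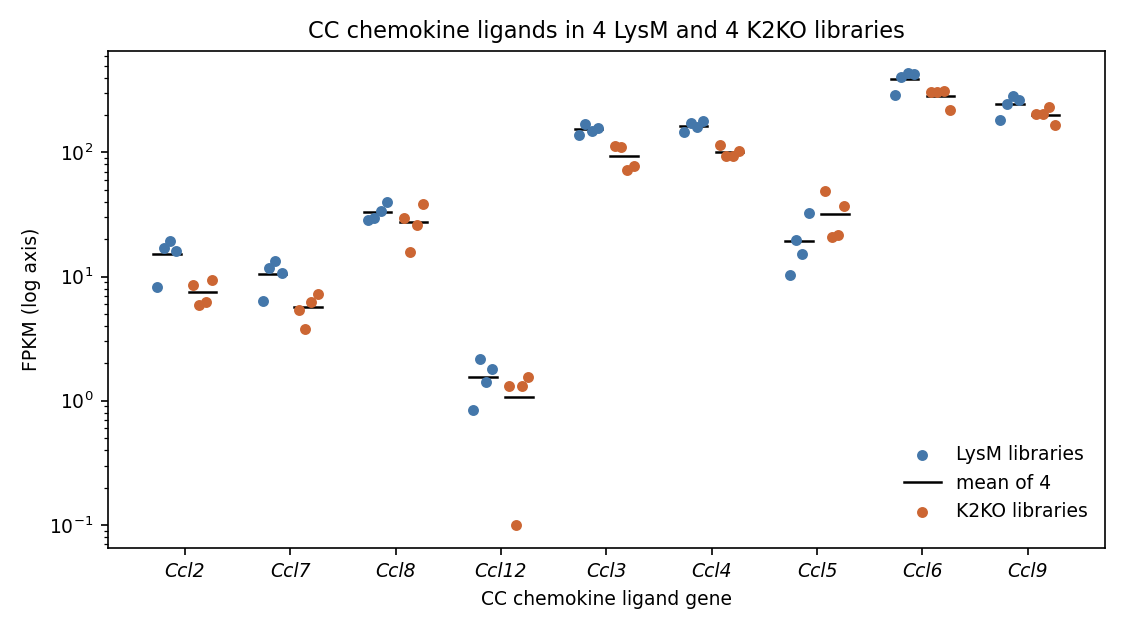
FPKM of each CC chemokine ligand gene (log axis) in the 4 LysM libraries (blue) and the 4 K2KO libraries (orange), in column order from left to right, with bars at the mean of 4. Ccl3 and Ccl4 are the genes whose groups do not overlap.

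Genes were taken as differentially expressed when limma gave an adjusted p below 0.05 and the log2 fold change exceeded 0.26 in size. The fit used log2(FPKM + 0.1) and the 10920 genes that averaged 1 FPKM or more. All 9 ligands passed that filter. Ccl2, Ccl3, Ccl4 and Ccl7 were differentially expressed and all 4 were lower in the libraries labelled K2KO. Of all tested genes 18.4% were differentially expressed, 9.84% higher and 8.61% lower. No ligand rose by limma (0 of 9), none of them had an unadjusted p under 0.05 in that direction, and ordinary least squares also gave 0. The mean on the log2 scale was lower in 8 of the 9 ligands, against 48.2% of tested genes, and the median log2 fold change was -0.70, against 0.011 over all tested genes. The groups did not overlap in 2 ligands, against 23.1% of tested genes in either direction and 10.2% with the libraries labelled K2KO lower. The transcripts of the 9 genes hold 42.1% to 52.8% G and C, and after each library was corrected for GC content and length Ccl2, Ccl3, Ccl4 and Ccl7 still passed (limma adjusted p = 0.0401, 0.0362, 0.00845 and 0.0376). Since the 9 genes share libraries and lie in clusters, they are not independent of each other, and no test was made over the list. In bulk RNA, fewer producing cells and less RNA per cell cannot be told apart.

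**Figure D2:**
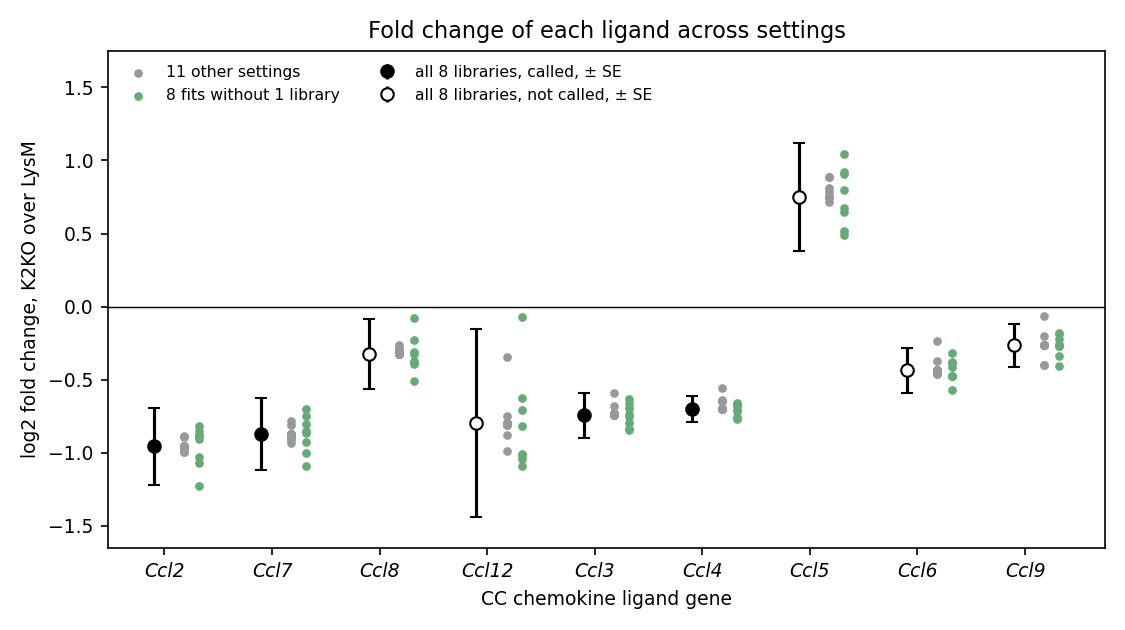
Log2 fold change (K2KO over LysM) of each ligand with all 8 libraries (black, ± SE; filled where differentially expressed), under 11 other settings (grey) and in the 8 fits that leave out 1 library (green). Ccl5 lies above 0 and the other 8 genes below 0 in each of these fits.

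Ccl4 and Ccl3 fell, and Ccl5 did not. Ccl4, also known as MIP-1 beta, was at 146, 172, 159.7 and 179 FPKM in LysM0 to LysM3 and at 115, 93.4, 93.7 and 102 FPKM in K2KO0 to K2KO3. Each library labelled K2KO lay below every LysM library. Its log2 fold change was -0.70 (SE 0.09, 95% interval -0.91 to -0.50, limma adjusted p = 0.00491). It was differentially expressed under all 11 other settings and in all 8 fits that left out 1 library, with values from -0.77 to -0.55.

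Ccl3, or MIP-1 alpha, was at 137, 169.5, 149.6 and 156 FPKM in LysM0 to LysM3. In K2KO0 to K2KO3 it was at 112, 111, 71.8 and 77.05 FPKM. The groups again did not overlap, and K2KO2 and K2KO3 lay well below K2KO0 and K2KO1. Ccl3 had a log2 fold change of -0.74 (SE 0.15, 95% interval -1.09 to -0.40, limma adjusted p = 0.0166). It missed the threshold without LysM1 (limma adjusted p = 0.0517), without LysM3 (0.0652) and without K2KO2 (0.0503), and with ordinary least squares. Quantile normalization shrank the value to -0.59, and the call was barely kept (limma adjusted p = 0.0487). The ratio of Ccl3 to Ccl4 FPKM was 0.933 ± 0.0484 in LysM and 0.922 ± 0.205 in the libraries labelled K2KO (SD, n = 4 each; exact two-sided permutation test, p = 0.971, smallest possible 0.0286). The means of this ratio were close, but it ranged from 0.757 to 1.19 among the libraries labelled K2KO and only from 0.869 to 0.987 among the LysM libraries.

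Ccl5, known as RANTES, was at 10.3, 19.6, 15.1 and 32.7 FPKM in LysM0 to LysM3 and at 48.6, 20.9, 21.5 and 36.8 FPKM in K2KO0 to K2KO3. The groups overlapped through LysM3, and K2KO0 was the highest library. Its log2 fold change was 0.75 with a 95% interval of -0.09 to 1.59 (SE 0.37, limma adjusted p = 0.169). Only Ccl12 had a larger SE among the 9 ligands. Leaving out 1 library moved the value of Ccl5 between 0.49, without LysM0 (limma adjusted p = 0.329), and 1.04, without LysM3. The ratio of Ccl5 to Ccl4 FPKM, chosen after its values were seen, was 0.0703 to 0.182 in the LysM libraries and 0.224 to 0.422 in the libraries labelled K2KO (exact two-sided permutation test, p = 0.0286, or 0.0571 adjusted over 4 ratios). With the values already seen, this smallest possible p only restates that the groups did not overlap, and it decides nothing.

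In the monocyte chemoattractant group, Ccl2 and Ccl7 fell by about the same amount. Ccl2, or MCP-1, was at 8.23, 16.8, 19.4 and 16.1 FPKM in LysM0 to LysM3 and at 8.59, 5.90, 6.27 and 9.37 FPKM in K2KO0 to K2KO3. LysM0 lay among the libraries labelled K2KO, and the other 3 LysM libraries lay above all of them. The log2 change of Ccl2 was -0.96 (SE 0.26, 95% interval -1.54 to -0.37, limma adjusted p = 0.0335). Without LysM0 it was -1.22 (limma adjusted p = 0.00765) and without K2KO3 -1.07 (0.0277), and without any 1 of the other 6 libraries Ccl2 missed the threshold, with limma adjusted p of 0.0703 to 0.113.

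Ccl7, or MCP-3, was at 6.39, 11.7, 13.3 and 10.7 FPKM in LysM0 to LysM3. Its levels in K2KO0 to K2KO3 were 5.41, 3.79, 6.18 and 7.18 FPKM. Here too LysM0 was the only LysM library within the range of the libraries labelled K2KO. Ccl7 changed by -0.87 (SE 0.25, 95% interval -1.43 to -0.32, limma adjusted p = 0.0366). As with Ccl2, the call held without LysM0 (log2 fold change -1.09, limma adjusted p = 0.0129) and without K2KO3 (limma adjusted p = 0.0258), and was lost without any 1 of the other 6 libraries (limma adjusted p 0.0765 to 0.115). The ratio of Ccl2 to Ccl7 FPKM was 1.42 ± 0.096 against 1.37 ± 0.266 (SD, n = 4 each; exact two-sided permutation test, p = 0.743). Neither Ccl2 nor Ccl7 was differentially expressed without a filter on low values (limma adjusted p = 0.0770 and 0.0834), and Ccl2 was not with the column numbers as a replicate block (limma adjusted p = 0.0585). Ccl7 also missed the threshold without an intensity trend (limma adjusted p = 0.0503). With ordinary least squares both were lost, at adjusted p of 0.0945 and 0.1003, and the block together with the GC content and length correction gave 0.0783 and 0.0580.

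Ccl8 and Ccl12, in the same genomic cluster, gave no clear difference. Ccl8, or MCP-2, was at 28.5, 29.5, 33.9 and 39.98 FPKM in LysM0 to LysM3 and at 29.6, 15.6, 26.1 and 38.2 FPKM in K2KO0 to K2KO3. K2KO1 was low and the other libraries overlapped. The log2 fold change was -0.33 with a 95% interval of -0.87 to 0.21 (limma adjusted p = 0.342), and it was -0.080 without K2KO1 and -0.51 without K2KO3 (limma adjusted p = 0.748 and 0.118). Ccl12, or MCP-5, was at 0.839, 2.15, 1.41 and 1.80 FPKM in LysM0 to LysM3. It was at 1.32, 0.0994, 1.31 and 1.56 FPKM in K2KO0 to K2KO3. K2KO1 again stood far below the rest. At these low levels the interval of the log2 fold change of -0.80 ran from -2.24 to 0.65 (limma adjusted p = 0.386). The value was -0.070 without K2KO1, and -0.34 with a pseudocount of 1.

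The CCR1 ligands Ccl6 and Ccl9 were the most abundant, and neither passed the test with all 8 libraries. Ccl6 was at 289.6, 402, 432 and 428 FPKM in LysM0 to LysM3 and at 309, 305, 309 and 221 FPKM in K2KO0 to K2KO3. LysM0 lay among the libraries labelled K2KO, and the other 3 LysM libraries lay above them. Ccl6 had a log2 fold change of -0.44 (SE 0.15, 95% interval -0.78 to -0.09, limma adjusted p = 0.0732). Ccl9, or MIP-1 gamma, was at 181, 246, 284 and 265 FPKM in LysM0 to LysM3 and at 203, 202, 233 and 167 FPKM in K2KO0 to K2KO3. Its groups overlapped by LysM0 alone. Ccl9 had a log2 fold change of -0.27 (SE 0.15, 95% interval -0.60 to 0.07, limma adjusted p = 0.217). Without LysM0 both genes were differentially expressed and lower, Ccl6 by -0.57 (limma adjusted p = 0.0203) and Ccl9 by -0.40 (limma adjusted p = 0.0374). With quantile normalization their values shrank to -0.23 (limma adjusted p = 0.310) and -0.068 (limma adjusted p = 0.757), and with the GC content and length correction Ccl9 was at -0.40 (limma adjusted p = 0.0670). The ratio of Ccl6 to Ccl9 FPKM was 1.59 ± 0.0468 in LysM and 1.42 ± 0.112 in the libraries labelled K2KO (SD, n = 4 each). It was also chosen after its values were seen (exact two-sided permutation test, p = 0.0286, adjusted over the 4 ratios 0.0571). That p is the smallest possible and only restates that the groups did not overlap, so it decides nothing.

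The control library LysM0 was the lowest LysM library for 9 of 9 ligands, while 35.3% of all tested genes were lowest there. The distance was small for Ccl8, at 28.5 FPKM against 29.5 FPKM in LysM1. Ccl3 and Ccl4 in LysM0 still lay above every library labelled K2KO. K2KO1 was the lowest library labelled K2KO for 6 of 9 ligands, against 23.7% of tested genes. The number of ligands differentially expressed was 6 without LysM0 and 4 without K2KO3. It was 2 without LysM2, K2KO0 or K2KO1, and 1 without LysM1, LysM3 or K2KO2. Over all tested genes the same fits gave from 337 calls, without LysM3, to 2837, without K2KO3. As shares of tested genes these fits called 21.4% without LysM0 and 26.0% without K2KO3. The shares were 9.43%, 6.47% and 6.65% without LysM2, K2KO0 and K2KO1. They were 6.74%, 3.09% and 4.54% without LysM1, LysM3 and K2KO2. Summed over the 9 genes, FPKM were 808 in LysM0 and 1069, 1108 and 1129 in LysM1 to LysM3, and between 660.5 and 832 in the libraries labelled K2KO.

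Monocyte markers moved with these libraries. Their summed FPKM over 6 genes was 19.9 in LysM0 and 46.5 to 51.5 in the other LysM libraries, and 26.6 in K2KO1 and 41.5 to 49.4 in the other libraries labelled K2KO. Ccr2 was the most abundant of them, at 10.97 FPKM in LysM0 and 11.9 FPKM in K2KO1, against 16.2 to 26.4 FPKM elsewhere. Between the groups 0 of the 4 tested monocyte markers were differentially expressed by limma, with 1 at an unadjusted p under 0.05. This was Plac8, named after its values were seen, at 1.25, 5.18, 2.89 and 5.85 FPKM in LysM0 to LysM3 and 8.64, 6.06, 6.32 and 8.54 FPKM in K2KO0 to K2KO3. Its groups did not overlap, and its log2 fold change was 1.14 (SE 0.41, limma adjusted p = 0.0767). The summed means of the list were 41.5 and 40.5 FPKM. Neutrophil markers, led by S100a9 at 132 and 127 FPKM, had similar sums of 249.8 and 250.2 FPKM, although Camp fell. LysM0 was also the lowest LysM library for the neutrophil sum, at 186 FPKM against 231 to 315 FPKM. The B cell sum there was 1.53 FPKM against 2.79 to 4.88 FPKM, and the dendritic cell sum 0.576 against 1.76 to 2.29 FPKM. In K2KO1 the neutrophil sum was 292 FPKM, within a range of 175 to 306 FPKM in the libraries labelled K2KO. What part these markers had in the ligand values was not tested.

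**Figure D3:**
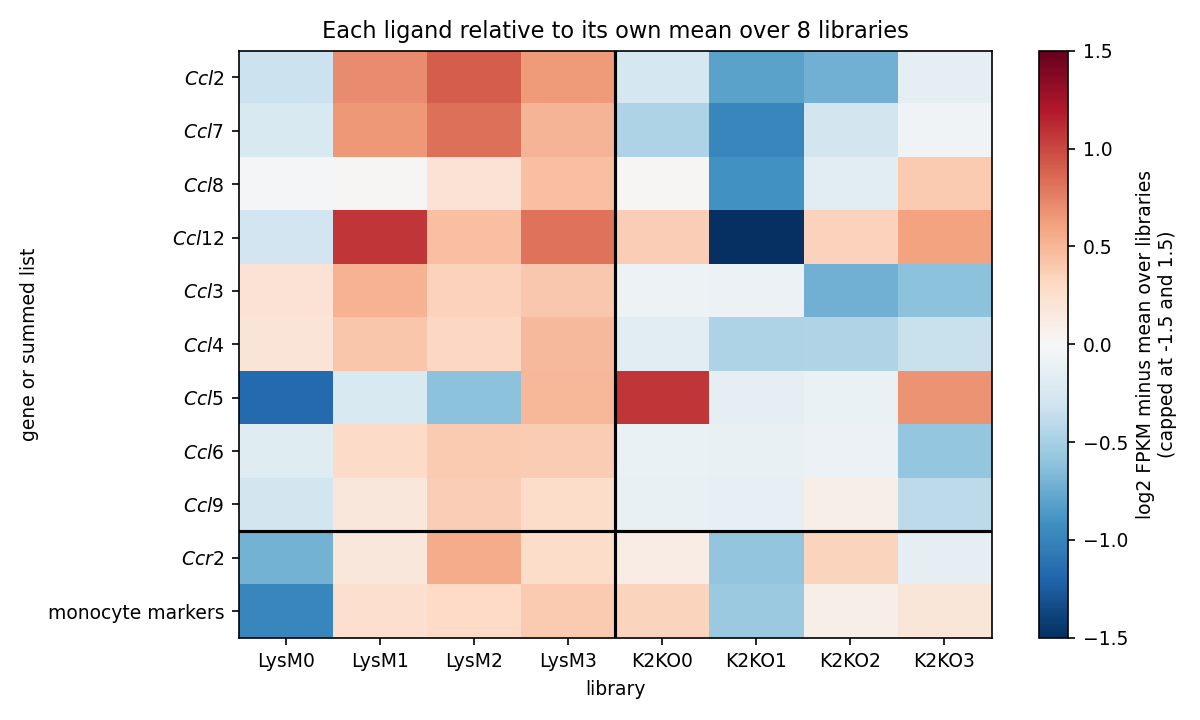
Log2 FPKM of each ligand, of Ccr2 and of the summed monocyte markers in each library, minus the mean over the 8 libraries (red higher, blue lower, capped at -1.5 and 1.5). LysM0 is the palest or bluest LysM column for all 9 ligands, and in K2KO1 the chemoattractant genes Ccl2, Ccl7, Ccl8 and Ccl12 and the monocyte markers are low.

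Receptor genes passed the test in both directions. Of 15 CC receptor and atypical receptor genes, 14 were listed, 6 were tested, 1 was higher and 1 was lower, which is 33.3% of those tested against 18.4% of all tested genes. Ccrl2, an atypical receptor that does not signal and presents chemerin, was at 70.4, 71.9, 51.4 and 56.0 FPKM in LysM0 to LysM3. It was at 34.4, 43.4, 33.3 and 30.4 FPKM in K2KO0 to K2KO3, with no overlap. Its log2 fold change was -0.82 (SE 0.14, limma adjusted p = 0.0111), and it was differentially expressed under all 11 other settings and in all 8 fits that left out 1 library. Ccr3, the eotaxin receptor, rose from 2.27 to 3.26 FPKM (log2 fold change 0.52, SE 0.13, limma adjusted p = 0.0296). With 1 library left out it kept that call only without LysM2 and without K2KO3, and the limma adjusted p was 0.0511 to 0.0909 otherwise. With all libraries it kept the call in 6 of 11 other settings.

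Ccr2 and Ccr1, receptors of the ligands described here, did not pass the test. Ccr2 was at 19.8 ± 6.47 FPKM in LysM and 17.5 ± 4.58 FPKM in the libraries labelled K2KO (SD, n = 4 each), a log2 fold change of -0.14 (limma adjusted p = 0.725). Without LysM2 it was 0.019 and without K2KO1 0.030. Ccr1 was at 5.23 ± 0.852 FPKM and 6.66 ± 1.32 FPKM (SD, n = 4 each), with a log2 fold change of 0.34 (limma adjusted p = 0.145). This value was 0.22 without either LysM2 or K2KO1, and 0.17 with the GC content and length correction.

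Other CC ligands were mostly low. Of 15 further mouse CC ligand genes 10 were listed and 2 were tested. These were Ccl25 and Ccl27a, and limma called 0 of them, with 0 at an unadjusted p under 0.05 and 0 by ordinary least squares. Ccl17, Ccl19 and Ccl20 were listed at 0 in all 8 libraries. Because Ctsd, an abundant lysosomal protease of macrophages, was also listed at 0 in every library, a 0 in this table can be a failed estimate. Ccl22, which is made by dendritic cells and alternatively activated macrophages, was under the filter, with 0.222 to 0.805 FPKM in LysM and 0.739 to 1.85 FPKM in the libraries labelled K2KO, which overlapped.

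Among the CXC chemokines, 7 of 13 listed genes were tested, and 2 (28.6%, against 18.4% of all tested genes) were called. Cxcl2, a neutrophil attractant, fell from 39.6 to 26.6 FPKM (log2 fold change -0.61, SE 0.17, limma adjusted p = 0.0374) without overlap of the groups. Ppbp, a platelet chemokine gene, rose from 2.03 to 4.30 FPKM (log2 fold change 1.07, SE 0.27, limma adjusted p = 0.0291). Cxcl2 kept its call in 4 of 11 other settings and 3 of 8 fits without 1 library, and Ppbp in 8 of 11 and 4 of 8.

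Downstream of the receptors, 5 of 19 tested signalling genes (26.3%, against 18.4% of all tested genes) were differentially expressed, 1 higher and 4 lower. Arrb2, beta-arrestin 2, which uncouples and internalises activated receptors, had a log2 fold change of -0.48 (limma adjusted p = 0.0141). Gnb2, a G protein beta subunit, changed by -0.33 (limma adjusted p = 0.0139), and the receptor kinase Grk2, listed under its older symbol Adrbk1, by -0.32 (limma adjusted p = 0.0166). The inhibitory G protein subunit genes Gnai2 and Gnai3 moved in opposite directions, by -0.27 (limma adjusted p = 0.0266) and 0.35 (limma adjusted p = 0.0287). Arrb2 kept its call in all 11 other settings and in 6 of 8 fits without 1 library, while Gnai2 did in 6 of 11 and 2 of 8. Gnai3 kept its call in 7 of 11 and 3 of 8, Gnb2 in 8 of 11 and 7 of 8, and Grk2 in 9 of 11 and 7 of 8. With quantile normalization the log2 fold change was -0.079 for Gnai2, -0.15 for Gnb2, -0.17 for Grk2 and -0.29 for Arrb2. With the GC content and length correction it was -0.14 for both Gnai2 and Gnb2 and 0.20 for Gnai3. After the correction for GC content and length the list had 2 calls of 19, against 10.1% of all tested genes, and with 1 library left out from 1 to 7.

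Regulators known to act on chemokine genes were examined next. Of 20 transcription factor genes of the NF-kB, IRF, STAT, AP-1, C/EBP and PU.1 families, all tested, 1 (5%, against 18.4% of all tested genes) was differentially expressed. This was Cebpd, which fell from 3.95 to 2.56 FPKM (log2 fold change -0.59, SE 0.14, limma adjusted p = 0.0250) and kept its call in 8 of 11 other settings and 4 of 8 fits without 1 library. Nfkb2 (-0.26), Irf3 (-0.19) and Irf5 (-0.23), named after their values were seen, had limma adjusted p of 0.0325, 0.0336 and 0.0252 without overlap of the groups but did not exceed 0.26 in size. The number of transcription factor calls was 5 without K2KO3, 2 without LysM0 and with upper-quartile scaling, and 0 without LysM3, K2KO1 or K2KO2. Of 8 tested genes for mRNA decay, 1 was called (12.5%, against the same 18.4%). This gene, Zfp36, which encodes tristetraprolin, a protein that destabilises many cytokine mRNAs, was lower by -0.42 (limma adjusted p = 0.0292). It kept that call in 4 of 11 settings and 3 of 8 fits. Among 4 tested proteases that trim chemokines, led by Mmp12, limma called 0 (1 at an unadjusted p under 0.05, 0 by ordinary least squares), and 1 was called with upper-quartile scaling.

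Inflammatory genes outside the chemokine families went both ways. Of 20 listed, 15 were tested, 4 were lower and 1 was higher (33.3% of those tested, against 18.4% of all tested genes). The lower genes were Traf1, a TNF receptor adaptor, at -0.53 (limma adjusted p = 0.0115), Ier3 at -0.59 (limma adjusted p = 0.0227), Nfkbiz at -0.40 (limma adjusted p = 0.0293) and the cytokine Il10 at -0.65 (limma adjusted p = 0.0333). Tnfaip3, which encodes the NF-kB inhibitor A20, was higher by 0.35 (limma adjusted p = 0.0314). With 1 library left out, Traf1 kept its call in 7 of 8 fits, Ier3 and Tnfaip3 in 3, Nfkbiz in 2 and Il10 in 1, and the list had from 0 calls, without LysM3, to 6. With all libraries the list had 1 call without a filter on low values and 1 with ordinary least squares. It also had 1 with the replicate block and the GC content and length correction together. Of all tested genes these settings called 5.13%, 6.83% and 7.95%.

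The 9 ligands lie in a pair of clusters on chromosome 11 of GRCm38. Ccl2 (82035571 to 82037453), Ccl7 (82045712 to 82047525), Ccl12 (82101845 to 82103400) and Ccl8 (82115185 to 82116799) form the first, all on the plus strand. The second starts 1409 kb further on and holds Ccl5 (83525778 to 83530518), Ccl9 (83572919 to 83578636), Ccl6 (83587882 to 83593087) and Ccl3 (83647844 to 83649355), all on the minus strand, and Ccl4 (83662584 to 83664683) on the plus strand. Within the clusters the gaps ran from 8.26 to 54.8 kb. Each cluster held ligands that passed the test and ligands that did not. Annotated genes on the opposite strand overlap Ccl2 and Ccl6. The one over Ccl6, E230016K23Rik, averaged 0.157 FPKM in LysM and 0.0386 FPKM in the libraries labelled K2KO, far below Ccl6. The one over Ccl2, Gm17268, was not among the listed genes, so it has no values here. Whether the FPKM were computed by strand is not stated.

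Of 34 other listed genes within 500 kb of a ligand 18 were tested, all of them around the second cluster, and 2 were differentially expressed, or 11.1%, against 18.4% of all tested genes. Both were lower, as were 8.61% of all tested genes. Wfdc17, a gene of the whey acidic protein family expressed in macrophages, starts 41.4 kb from the start of Ccl4. Its levels were 169, 129, 177 and 159 FPKM in LysM0 to LysM3 and 64.0, 80.9, 71.1 and 69.2 FPKM in K2KO0 to K2KO3. The groups lay far apart, and LysM0 was not the lowest LysM library here. Wfdc17 changed by -1.15 (SE 0.11, limma adjusted p = 9.09e-04) and was differentially expressed under all 11 other settings and in all 8 fits without 1 library. Taf15, which encodes an RNA-binding protein, changed by -0.41 (SE 0.13, limma adjusted p = 0.0473) and kept that call in 4 of 11 settings and 2 of 8 fits.

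**Figure D4:**
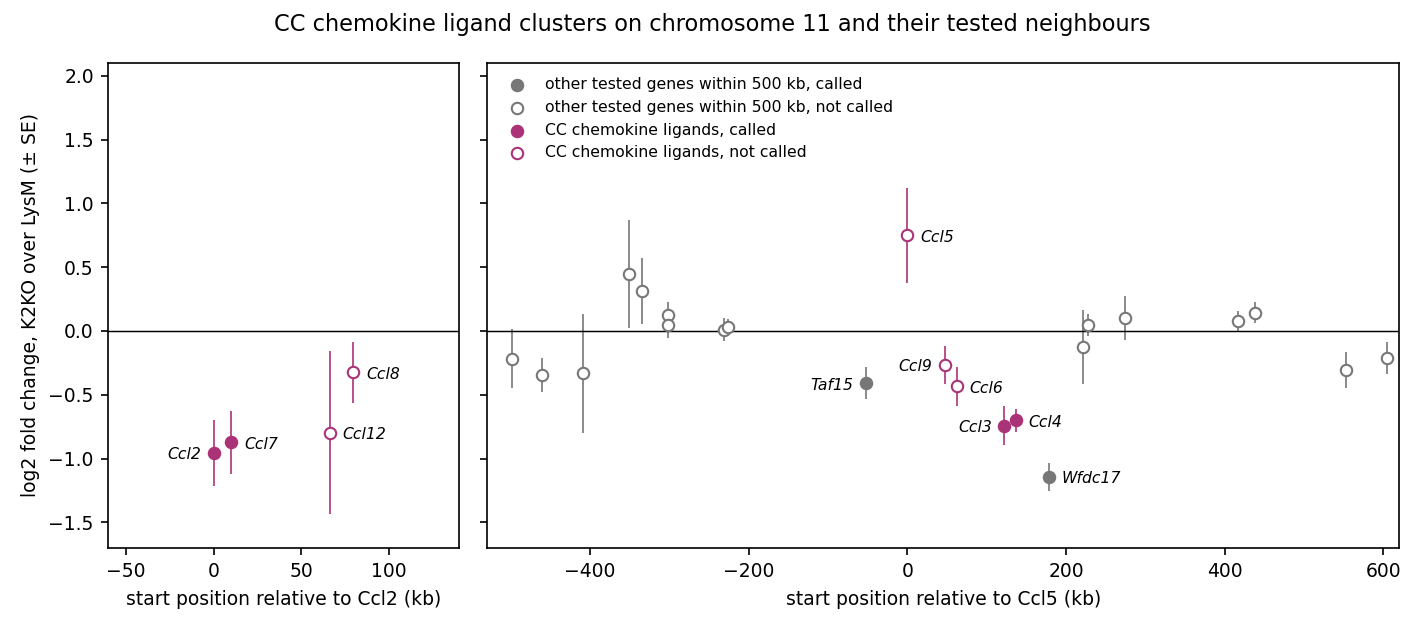
Log2 fold change (K2KO over LysM, ± SE) against the start of each gene relative to Ccl2 (left) and Ccl5 (right), in kb, for the 9 ligands (purple) and the 18 other tested genes within 500 kb (grey), filled where differentially expressed. Ccl3, Ccl4 and Wfdc17 lie next to each other at -0.74, -0.70 and -1.15, while Ccl5 in the same cluster lies at 0.75.

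Sequence upstream of the start was matched for 5 of the 9 ligands in RefSeq (GRCm38.p6), namely Ccl3, Ccl6, Ccl8, Ccl9 and Ccl12. On both strands of the 300 bases from 250 before to 50 after the start, 5 motifs were searched, the NF-kB consensus, AP-1 (TGANTCA), an ISRE core (GAAA, any 2 bases, GAAA), C/EBP (TTNNGNAA) and the CACCC box of KLF factors. Shown are the 130 bases before the start of Ccl3, the ligand of the 5 that was differentially expressed, and of Ccl9, a CCR1 ligand of the same cluster that was not. Capitals mark matches to NF-kB, AP-1 and C/EBP.
Ccl3, minus strand, chr11:83649379-83649508: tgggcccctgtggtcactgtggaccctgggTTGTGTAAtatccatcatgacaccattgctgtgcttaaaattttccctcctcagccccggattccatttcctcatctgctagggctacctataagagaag
Ccl9, minus strand, chr11:83578637-83578766: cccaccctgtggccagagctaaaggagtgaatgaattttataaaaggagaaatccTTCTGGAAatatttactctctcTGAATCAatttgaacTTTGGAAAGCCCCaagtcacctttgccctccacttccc
Ccl3 had 1 match, to C/EBP, from base -100. Ccl9 had C/EBP matches from -75 and -38, an AP-1 match from -53 and an NF-kB match from -35 that overlaps the second C/EBP match. CACCC was found at 2 places in Ccl9 and 1 in Ccl12, and none of the 5 motifs was found in Ccl6 or Ccl8. Of all 32851 promoters of this length, 40.7% held the C/EBP letters, 57.5% CACCC, 7.81% AP-1, 4.51% NF-kB and 3.44% the ISRE core. These matches describe the letters in this window.

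The genes most like each differentially expressed ligand were ranked by the root mean square difference of log2(FPKM + 0.1), centred per gene, over the 8 libraries and the 10920 tested genes. For Ccl2 the nearest gene was Ccl7 (0.195), its neighbour in the cluster, followed by Calml4. For Ccl7 the nearest was Hemk1 (0.136), followed by RP23-220F20.2 and 9230111E07Rik, and Ccl2 ranked 8. The gene nearest to Ccl3 was Cxcl2 (0.143), followed by Pilra and Pdgfb, and Ccl4 ranked 5. For Ccl4 the nearest was Rarg (0.0812), followed by Pltp and Neurl2, and Ccl3 ranked 212. Across the clusters, Ccl4 ranked 95 and Ccl3 ranked 484 in likeness to Ccl2.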

How the data were processed

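The authors deposited one table of FPKM per gene with 1 column per library (8 in all), replicates being kept apart. The methods of the study name alignment to mm10 with TopHat2 and quantification with Cufflinks, from stranded total RNA libraries, whereas the submitters' processing notes name STAR, Cufflinks and Cuffdiff. No versions are given in the sources used here, and the labels and methods also name different RNA isolation kits. Columns give genotype and a number from 0 to 3, which does not identify a mouse. Read counts cannot be had from FPKM, and no counting interval is given.

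FPKM were fitted as log2(FPKM + 0.1) with limma 3.58.1 (lmFit, then eBayes with trend) in R 4.3.3, without covariates, for the 10920 genes averaging 1 FPKM or more, over all of which Benjamini-Hochberg adjusted p-values were computed. The pseudocount makes fold changes of low genes smaller. Single ratios were compared by exact permutation of the 8 libraries (smallest p 0.0286). The fit was tested on simulated data. Names, positions, length and GC content came from GENCODE M21, matched for 23645 of the 23761 genes.

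Named genes are the 9 ligands, Klf2, up to 4 genes per pathway list with the smallest adjusted p among those called, Ccr1 and Ccr2, the 3 genes most like each called ligand, and the most abundant gene of each marker list. Ccl5, Ccl6 and Ccl9 ratios and other genes named beyond this rule were picked with their values in view. Some items that the rule names are not reported here. The members and lists were chosen with earlier results of these data known. Alternatives were other pseudocounts, filters, scalings and tests, a GC content and length correction, a block on the column number, and each library left out.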

Additional observations from a re-analysis of the deposited data

Results flagged for a closer look

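In 2 of 36 groups of 4 libraries, 1 library stood far apart from its 3 fellows, and about 1.8 such groups (1 in 20) arise by chance. Ccl6 was at 221 FPKM in K2KO3, while the other 3 libraries labelled K2KO lay between 305 and 309 FPKM. Ccr7, a receptor for Ccl19 and Ccl21, was at 0.302 FPKM in LysM0, while the other 3 LysM libraries lay between 1.12 and 1.29 FPKM.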

How the results depend on the processing

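All 9 ligands kept their direction in the 11 other settings with all libraries and the 8 fits without 1 library, and 8 were lower in each. Of the 4 calls among the ligands 2 remained without a filter on low values and 1 with ordinary least squares. All tested genes gave 1090 calls without a filter, or 5.13% of the 21236 genes then tested. Of the 10920 genes, 746 (6.83%) were called with ordinary least squares and 1098 (10.1%) with the GC content and length correction. With 1 library left out 337 to 2837 were called, of which the ligands had 1 to 6. The share of calls that were higher was 53.3%, 72.7% with upper-quartile scaling, where the median of all genes moved to 0.072, 44.2% with the GC content and length correction and 45.5% with that correction and the block. CC receptors had 1 call in place of 2 without a filter, with quantile normalization, ordinary least squares or the GC content and length correction, and 1 to 2 with a library left out. Genes near the ligands had 1 call in place of 2 at a mean FPKM of at least 0.1, with quantile normalization, upper-quartile scaling, no intensity trend, ordinary least squares or the GC content and length correction, and 1 to 3 with a library left out. The sign turned for Klf2 (0.039) after the GC content and length correction, with or without the block, and for Ccr2 without LysM2 (0.019) or K2KO1 (0.030), whose fits without 1 library ran from -0.40 to 0.030. The cause of these changes was not tested.

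The column numbers were also used as a replicate block. Same-numbered libraries did not deviate together (correlations of -0.070, 0.020, 0.073 and -0.057), and 1 of 4 LysM libraries correlated best with its own number. No pairing by number was thus seen, but weak correlations cannot exclude that same-numbered cultures were handled together. With the block 2057 genes and 3 ligands were called. With the block and the GC content and length correction together there were 868 calls, 2 ligands and 1 CC receptor, and 3 calls near the ligands. Depth is known only as a ratio between libraries, so the precision of low values such as those of Ccl12 is unknown.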
